A study of Mus musculus with 6 samples.

Results

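The catechol estrogen 2-hydroxyestradiol, labelled 2OHE2, was given to mouse macrophages before lipopolysaccharide (LPS), and 1 RNA sequencing library of these cells, among 6 libraries in all, is compared here with 3 control libraries. All 6 cultures were bone marrow-derived macrophages, which are grown from marrow with the growth factor M-CSF (20 ng/mL), of female C57BL/6N mice aged 8 weeks. Cells plated on day 7 received a compound for 1 h and then LPS, the bacterial cell wall component that TLR4 senses, at 100 ng/mL for 6 h. No library lacked LPS, so every level below is a level under stimulation. The 3 controls were the ethanol vehicle (EtOH), estradiol (E2) and an estrogen labelled 16Epi. The other 2 libraries were the catechol estrogens 2-hydroxyestrone (2OHE1) and 4-hydroxyestrone (4OHE1). Estrogen stocks of 1 mM were diluted 1 to 1000, which gives 1 µM; the unit printed for the final dose in the labels is not readable as a concentration. Each compound had 1 library, and the labels name no separate animals or cultures, so p-values rest on the spread between the 3 controls, which may be technical and also holds differences between control compounds. A lone library was assumed to vary like the controls.

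Catechol estrogens arise when cytochrome P450 enzymes add a hydroxyl group beside the phenolic hydroxyl of estradiol or estrone. Those hydroxylated at carbon 2 are poor ligands of the estrogen receptor in comparison with estradiol. Catechol estrogens can be oxidised to quinones that react with thiols. Thiol-reactive molecules release the transcription factor NRF2 from its inhibitor KEAP1, and NRF2 then turns on genes of glutathione synthesis, quinone reduction, heme breakdown and NADPH supply through antioxidant response elements. In LPS-treated macrophages TLR4 acts through NF-kB, AP-1 and IRF3. These factors induce interleukin-1, interleukin-6, chemokines and interferon beta, and secreted interferon beta then induces the interferon-stimulated genes. In structure, 2OHE2 differs from E2 by the added catechol hydroxyl. It differs from 2OHE1 in carrying a hydroxyl group where 2OHE1 carries the ketone of estrone, and it differs from 4OHE1 both in that group and in the place of the catechol hydroxyl.

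Promoters of 5 genes that passed the test below are shown because they carry the sequence elements of those pathways: Gclm and Gsta3 from the NRF2 list, and Ifnb1, Cxcl10 and Il6 from the LPS response. Each run holds the 250 bases before the RefSeq start site, 5′ to 3′ on the gene's strand, in GRCm38.p6. Capitals mark matches on either strand. The patterns are the antioxidant response element core TGACNNNGC, the kappa B motif GGANNTTCC bound by NF-kB, and the interferon-stimulated response element core GAAANNGAA. The windows are chr3:122245307-122245556 (plus strand) for Gclm, chr1:21240335-21240584 (plus) for Gsta3, chr4:88522795-88523044 (minus) for Ifnb1, chr5:92348890-92349139 (minus) for Cxcl10 and chr5:30012864-30013113 (plus) for Il6.
Gclm: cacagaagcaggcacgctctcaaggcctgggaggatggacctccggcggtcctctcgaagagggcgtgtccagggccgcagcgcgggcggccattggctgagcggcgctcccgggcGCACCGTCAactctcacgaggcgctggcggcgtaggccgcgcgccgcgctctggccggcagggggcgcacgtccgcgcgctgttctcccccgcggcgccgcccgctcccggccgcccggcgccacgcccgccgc
Gsta3: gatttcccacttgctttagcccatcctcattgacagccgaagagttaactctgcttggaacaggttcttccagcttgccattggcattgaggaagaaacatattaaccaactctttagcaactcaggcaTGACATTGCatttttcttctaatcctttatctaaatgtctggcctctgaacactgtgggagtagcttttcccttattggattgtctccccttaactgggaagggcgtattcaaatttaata
Ifnb1: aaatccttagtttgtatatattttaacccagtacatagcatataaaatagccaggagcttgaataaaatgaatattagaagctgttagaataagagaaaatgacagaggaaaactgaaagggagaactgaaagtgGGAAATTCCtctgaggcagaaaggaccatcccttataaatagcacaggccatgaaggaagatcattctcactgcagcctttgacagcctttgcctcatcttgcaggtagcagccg
Cxcl10: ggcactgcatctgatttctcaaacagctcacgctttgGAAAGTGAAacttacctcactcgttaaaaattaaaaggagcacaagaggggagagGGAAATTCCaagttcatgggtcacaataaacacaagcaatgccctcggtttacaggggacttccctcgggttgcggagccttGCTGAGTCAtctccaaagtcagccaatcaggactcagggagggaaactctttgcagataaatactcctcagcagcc
Il6: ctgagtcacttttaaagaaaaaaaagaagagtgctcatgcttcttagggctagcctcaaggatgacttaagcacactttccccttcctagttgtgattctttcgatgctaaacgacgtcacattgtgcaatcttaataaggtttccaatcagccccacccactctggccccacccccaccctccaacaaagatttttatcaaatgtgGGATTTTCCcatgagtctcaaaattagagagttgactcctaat
In Gclm and Gsta3 the capitals mark the antioxidant core, at -134 to -126 and at -121 to -113 from the start site. In Ifnb1 and Il6 they mark a kappa B motif, at -115 to -107 and at -43 to -35. Cxcl10 holds an interferon-stimulated core at -213 to -205, a kappa B motif at -158 to -150 and an antioxidant core at -76 to -68, the last of which overlaps an AP-1 site. In windows of 300 bases (250 before and 50 after the start), the antioxidant core was in 14.0% of all 27025 genes with a promoter and in 17.9% of the 5497 genes kept for this comparison that had one. It was in 10 of 26 NRF2 targets (38.5%) and in 23 of 102 genes called higher with 2OHE2 (22.5%), and also in 10 of 34 interferon-stimulated genes (29.4%) and 11 of 76 genes called lower (14.5%). The kappa B motif was in 4.86% of all genes, in 5.99% of the kept genes and in 7 of 76 called lower (9.21%). The interferon-stimulated core was in 9.76% of all genes, in 9.31% of the kept genes, in 11 of the 76 (14.5%) and in 21 of 34 interferon-stimulated genes (61.8%). A match is a description of the letters and not a measurement of binding.

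The 2OHE2 library held 16808895 reads in annotated genes, and this total ranged from 14734225 to 17326353 over the 6 libraries. Of 24016 genes in the deposited table, 22800 had a transcript of at least 200 bases and 7120 of these had a mean of at least 5 RPKM (reads scaled to transcript length and to the tags of the library). Differences below are on the scale log2(RPKM + 0.1), 2OHE2 minus the mean of EtOH, E2 and 16Epi, and ± gives the standard error of limma, a linear model fitted across all genes. The median difference over the 7120 genes was 0.04. It was -0.11 in the tenth of genes poorest in GC and 0.15 in the tenth richest in GC. For 2OHE1 these medians were -0.06 and 0.01, for 4OHE1 -0.19 and 0.08, and among the controls they lay between -0.06 and 0.07. A repeat with the trend in GC and length removed is given beside the calls that it ended.

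With 2OHE2, 228 of 7120 genes (3.2%) passed limma's test at an adjusted p below 0.05. The rises numbered 129 (1.81%) and the falls 99 (1.39%). Every one of the 129 was above all 3 controls, and every one of the 99 was below all 3. The rises included Acss2, Layn, Gclc and Ednrb as the 4 largest, and the falls included interferon beta, the interleukin-1 family, plasminogen activator inhibitor 2 and chemokines. Sizes ran from -3.37 to 1.78, while the 3 controls spanned a median of 0.20 per gene. By size alone, 31 genes (0.435%) were at least 2-fold above the control mean and above all controls, and 25 (0.351%) were at least 2-fold below it and below all controls. For comparison, a difference of at least 2-fold from the mean of the other controls was met by 9 genes in the EtOH library, 5 in E2 and 2 in 16Epi, and, against all 3 controls, by 41 in 2OHE1 and 90 in 4OHE1. The genes called higher had a median GC content of 52.8% and those called lower 46.6%, beside 49.9% for all 7120. After removal of the trend with GC and length, 98 genes were higher and 114 lower, and 176 of the 228 were still called in the same direction. Without the E2 library 39 genes were called, all among the 228, and without EtOH 439, which held all 228. With no variance trend 10 genes were called, and with no filter on level (16011 genes tested) 281 were called, 24 of them among the 228. These 2 settings also ended most calls named below: with no variance trend 4 of 6 interleukin-1 genes, 1 of 8 other cytokines and mediators, 0 of 9 chemokine and receptor genes and 0 of 9 feedback, sterol and polyamine genes were called, and with no filter on level 3, 1, 0 and 2.

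**Figure D1:**
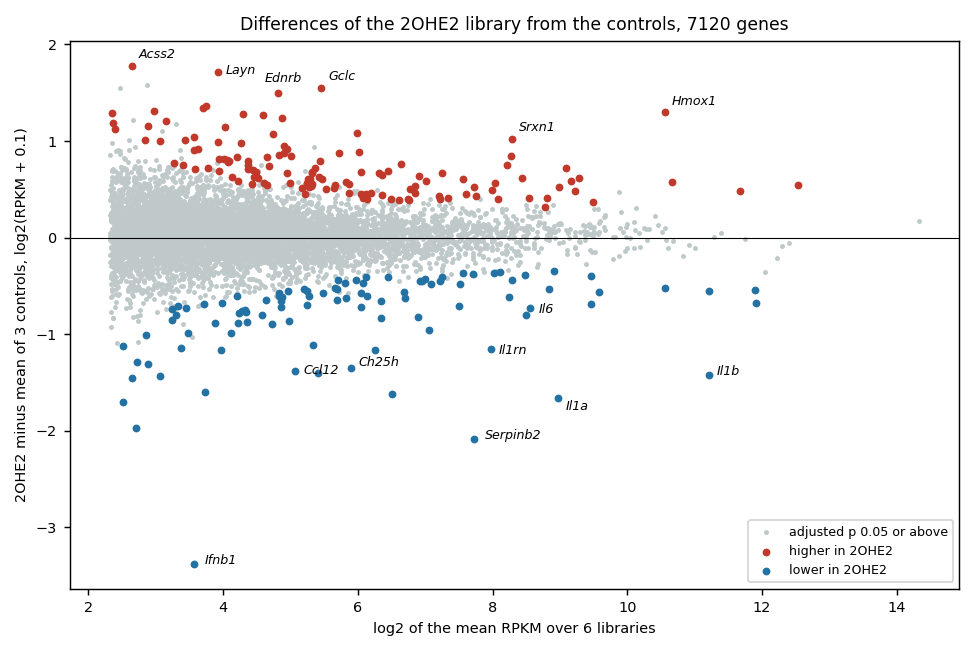
Difference of the 2OHE2 library from the mean of 3 controls (vertical axis, log2(RPKM + 0.1)) against the log2 of the mean RPKM over 6 libraries (horizontal axis) for 7120 genes, with the 129 genes called higher in red, the 99 called lower in blue and the others in grey. Ifnb1, at -3.37, lies furthest from 0, and called genes occur from the lowest to nearly the highest levels.

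Genes of the NRF2 pathway rose together with 2OHE2. Of the 32 NRF2 targets kept, out of 33 listed, 20 rose and none fell by the test, beside 1.81% and 1.39% of all genes. All 32 differences were above 0, the smallest being 0.06, beside 4061 of all 7120 genes (57.0%). The median of the 32 was 0.48, beside 0.04 for all genes. With 2OHE1 and 4OHE1 the median of the 32 was 0.56 and 0.66. The largest rise was that of Gclc, the catalytic subunit of glutamate-cysteine ligase, which makes the first and limiting step of glutathione synthesis (chr9:77602342-77642296 in mm9). Gclc was at 62.1 RPKM with 2OHE2, 67.0 with 2OHE1 and 71.4 with 4OHE1, and at 20.6, 21.4 and 21.4 with EtOH, E2 and 16Epi. The 3 controls lay within 1 RPKM of each other and far below every catechol estrogen library. The difference was 1.55 ± 0.10 (limma adjusted p = 0.000299), or 2.94 times the control mean.

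Other enzymes of thiol and quinone handling moved the same way. Gclm, the modifier subunit of the same ligase, was at 380 RPKM with 2OHE2 against 202 to 227 in the controls (a rise of 0.85 ± 0.09, adjusted p = 0.00424). Srxn1, sulfiredoxin, which repairs over-oxidised peroxiredoxins, was at 396 RPKM against 206, 194 and 185 with EtOH, E2 and 16Epi (1.03 ± 0.08, adjusted p = 0.00135). The carbonyl reductase Cbr3 rose by 1.24, the glutathione transferase Gsta3 by 1.21, the quinone reductase Nqo1 by 0.69 and thioredoxin reductase Txnrd1 by 0.52 (adjusted p from 0.00258 to 0.0228). Gss, glutathione synthetase, which was not on the list and was picked after its values were seen, rose by 1.07 (adjusted p = 0.00876). Enzymes of the pentose phosphate pathway rose less, Pgd, which supplies NADPH, by 0.58 and Taldo1 by 0.37. So did the peroxide-removing catalase Cat, by 0.56, and the peroxiredoxins Prdx1, by 0.48, and Prdx6, by 0.46. Gsr, glutathione reductase, rose by 0.41. Sqstm1, the autophagy adaptor that binds KEAP1, rose by 0.57, and Osgin1 by 0.84. Among the 12 targets that did not pass were Nfe2l2, which encodes NRF2 itself (0.17, adjusted p = 0.395), and the cystine transporter Slc7a11, at 134 RPKM with 2OHE2 and 123 to 130 in the controls (0.07, adjusted p = 0.675).

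Heme and iron genes overlapped with this response: 7 of 16 kept members rose and none fell by the test, beside 1.81% and 1.39% of all genes. The median of the 16 was 0.20 for 2OHE2, 0.12 for 2OHE1 and 0.24 for 4OHE1. With 2OHE2, 11 of the differences were above 0 and 5 below, down to -0.61. The rises of Hmox1, Blvrb, Ftl1 and Slc40a1 are also counted among the NRF2 targets above, so the counts share genes. Hmox1, heme oxygenase 1, which opens the heme ring and frees its iron (chr8:77617517-77624492 in mm9), was at 2024 RPKM with 2OHE2, 2064 with 2OHE1 and 2462 with 4OHE1. Its controls were at 906 with EtOH, 841 with E2 and 733 with 16Epi, so that the groups did not overlap, and the rise was 1.30 ± 0.11 (adjusted p = 0.00183). The heme transporter Slc48a1 rose by 0.61, biliverdin reductase Blvrb by 0.48, the ferritin light chain Ftl1 by 0.54 and the phagosomal metal transporter Slc11a1 by 0.52. Slc40a1, ferroportin, the only known iron exporter, was at 18.6 RPKM against 7.40 to 10.0 in the controls (a rise of 1.14). Spic, a transcription factor of heme-handling macrophages, rose by 1.04, while the ferritin heavy chain Fth1 was at 0.17 (adjusted p = 0.285). Of the 23 called genes named among the NRF2 and iron genes, 6 stayed called without the E2 library, and the adjusted p of the other 17 then lay between 0.0626 and 0.124. All 23 stayed called without EtOH, without 16Epi, and with the GC and length trend removed, whereas 21 were lost with no variance trend (adjusted p from 0.0577 to 0.203) and 21 with no filter on level (0.0726 to 0.36).

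The other large rises fell outside these lists or on several of them. Acss2, which makes acetyl-CoA from acetate (chr2:155343779-155388479 in mm9), showed the largest rise of all called genes: 10.3 RPKM with 2OHE2, 8.87 with 2OHE1 and 9.67 with 4OHE1 against 3.16, 2.65 and 2.97 with EtOH, E2 and 16Epi (1.78 ± 0.20, adjusted p = 0.00704). Layn, a hyaluronan-binding surface protein, rose by 1.71, and Ednrb, the endothelin B receptor, by 1.49. The cyclin-dependent kinase inhibitor Cdkn2b rose by 1.35, the pannexin channel Panx1 by 1.28, the amino acid transporter Slc43a2 by 1.27 and the glycine transporter Slc6a9 by 1.29. Ass1, of arginine synthesis, rose by 0.92, the stress cytokine Gdf15 by 0.88 and the mitochondrial protease Afg3l2 by 0.86. In every one of these 10 genes the 2OHE2 value was above all 3 controls, as in all 129 genes called higher, so this is no separate support. Without E2, Slc6a9 (adjusted p = 0.115) and Gdf15 (0.0950) were no longer called, nor with the GC and length trend removed (adjusted p between 0.0545 and 0.0566).

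**Figure D2:**
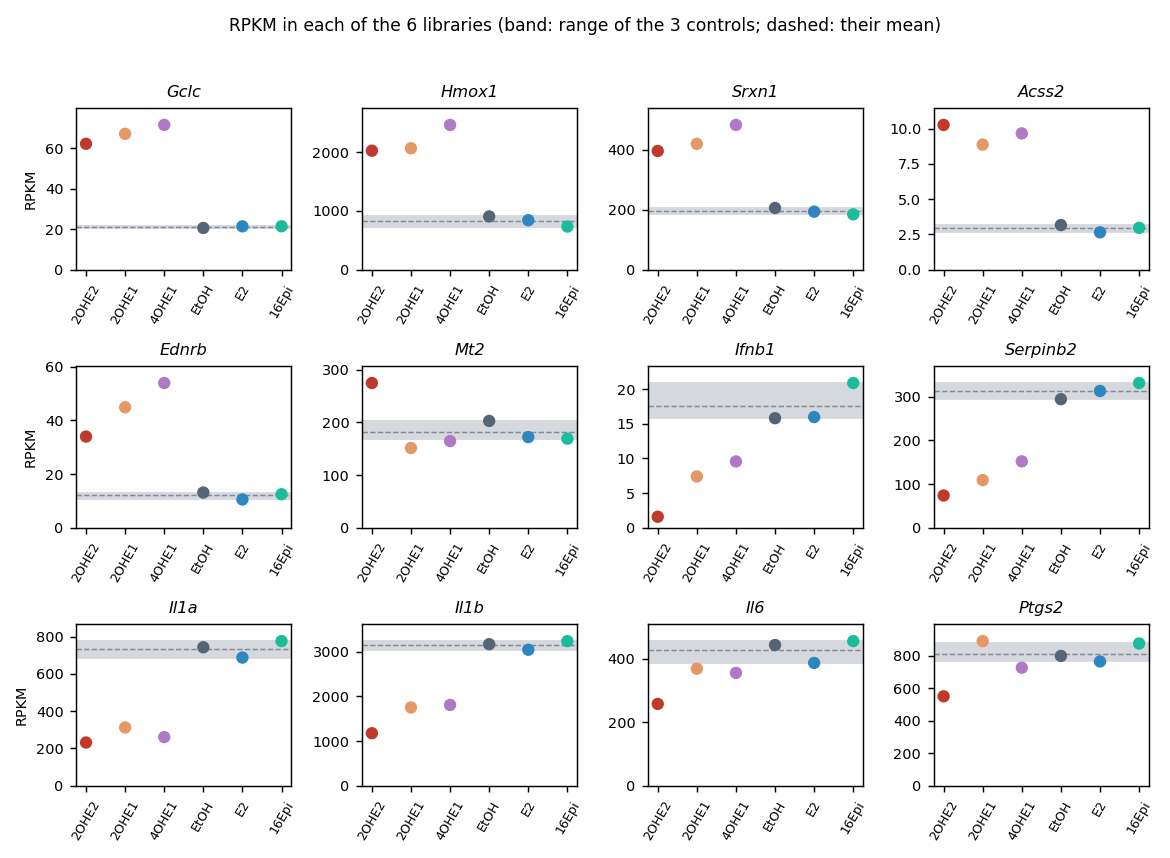
RPKM (vertical axes, from 0) of 12 genes in each of the 6 libraries, with a grey band for the range of the 3 controls and a dashed line for their mean. Gclc, Hmox1, Srxn1, Acss2 and Ednrb lie above the band in all 3 catechol estrogen libraries, Serpinb2, Il1a, Il1b and Ifnb1 lie below it in all 3 and are lowest in 2OHE2, and Mt2 is above the band and Ptgs2 below all other libraries in 2OHE2.

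Interferon beta showed the largest difference of any gene. Ifnb1 (chr4:88167929-88168698 in mm9, a gene without introns) was at 1.59 RPKM with 2OHE2, 7.41 with 2OHE1 and 9.57 with 4OHE1, and at 15.8, 15.98 and 20.9 with EtOH, E2 and 16Epi. The 2OHE2 value was the lowest of the 6 by 2.15 on the log2 scale, and the control mean was 11.1 times as high. It rests on 23 reads (95% exact Poisson interval 14.6 to 34.5, counting error only), where the other libraries held 105 to 267. The difference was -3.37 ± 0.20 (limma adjusted p = 0.000299) and stayed past the test when any 1 control was left out, though not with no filter on level (adjusted p = 0.0542). In the log2 values of the authors' deposited table, whose transformation is not named, the same difference was -0.49.

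Differences in genes downstream of interferon were smaller. Of the 17 kept genes for type I interferon, its receptor and its factors, Ifnb1 alone passed the test. Beside 1.39% and 1.81% of all genes, 4 fell and none rose by the test among 47 interferon-stimulated genes kept, out of 48 listed. Their median was -0.11 with 2OHE2, 0.09 with 2OHE1 and -0.06 with 4OHE1, against the same 3 controls, and it was -0.14, 0.11 and -0.02 with the GC and length trend removed. The 4 that fell were Ifi205, of a family with similar copies (-0.56), the chemokine Cxcl10 (-0.55), Rsad2, the antiviral enzyme viperin (-0.40), and the guanylate-binding protein Gbp5 (-0.37). Rsad2 was at 552 RPKM with 2OHE2, 827 with 2OHE1 and 646 with 4OHE1, and at 698, 710 and 775 with EtOH, E2 and 16Epi. Its 2OHE2 value lay below all 5 others, and that of 2OHE1 above them. Ifit2, at -0.33, and Mx2, at -0.38, did not pass (adjusted p = 0.174 and 0.167), nor did Oasl1, at 0.34 (0.207). In 20 of the 47 genes 2OHE2 was the lowest of the 6 libraries and in 1 the highest, beside 10.7% and 23.9% of all genes. Without E2, none of the 4 was called (adjusted p from 0.0728 to 0.128), and without 16Epi Gbp5 was not (0.0591).

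**Figure D3:**
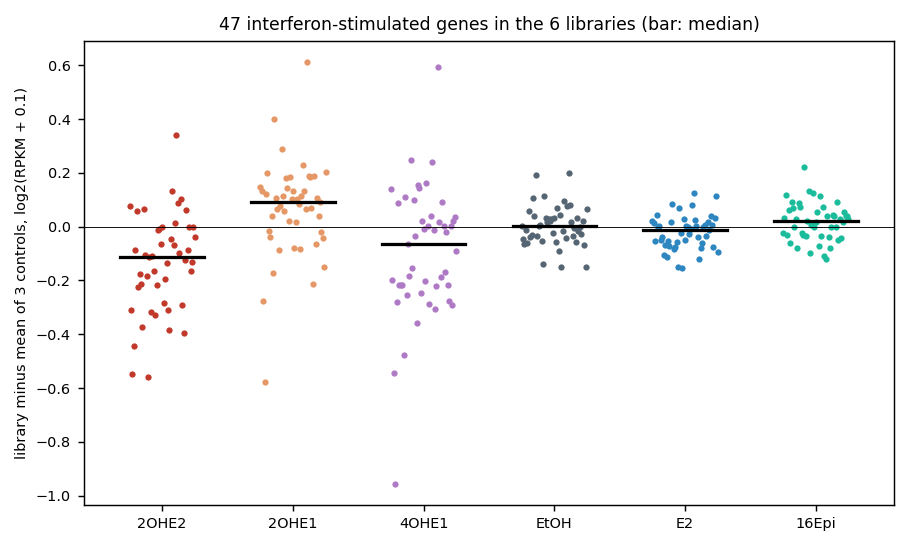
Difference of each library from the mean of the 3 controls (vertical axis, log2(RPKM + 0.1)) for 47 interferon-stimulated genes (points) in the 6 libraries (horizontal axis), with bars at the medians. The median is -0.11 for 2OHE2, 0.09 for 2OHE1 and -0.06 for 4OHE1, and most genes lie within 0.5 of 0 in every library.

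The interleukin-1 family held some of the clearest falls. Il1a and Il1b lie near each other on chromosome 2 (chr2:129125346-129135708 and chr2:129190316-129196856 in mm9) and encode the cytokines interleukin-1 alpha and beta; Il1rn (chr2:24200891-24207011) encodes their receptor antagonist. Il1b was at 1176 RPKM with 2OHE2, 1752 with 2OHE1 and 1808 with 4OHE1, and at 3166, 3042 and 3236 with EtOH, E2 and 16Epi. Il1a was at 232, 313 and 261 in the catechol estrogen libraries in the same order, and at 742, 687 and 775 in the controls. For both genes 2OHE2 was the lowest of the 6, by 0.57 for Il1b and 0.17 for Il1a. The differences were -1.42 ± 0.07 for Il1b and -1.66 ± 0.08 for Il1a (limma adjusted p = 0.000101 for each), and Il1rn fell by 1.15 (0.000299). Il18, a related cytokine, was at 16.7 RPKM with 2OHE2 against 29.0 to 32.5 in the controls and fell by 0.90 (adjusted p = 0.0114). These 4 were all the falls among 11 kept members of the list, whose median was -0.06 for 2OHE2, -0.12 for 2OHE1 and -0.16 for 4OHE1. Of all genes, 1.39% were called lower. Casp1, the protease that processes interleukin-1 beta, was at -0.11 (adjusted p = 0.508). The antisense gene Gm14023 overlaps Il1a and fell by 1.62. No source used here states whether counting used strand, so the reads of these overlapping genes cannot be told apart. Il1f6, which encodes an interleukin-36, fell by 1.28; its call was lost without E2 (adjusted p = 0.0992), with limma-voom on recovered reads (0.109) and with the authors' log2 values (0.0839), while those of Il1a, Il1b, Il1rn, Il18 and Gm14023 were not lost in these settings.

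Among other inflammatory cytokines and mediators, 8 of 20 kept genes fell and none rose by the test, beside 1.39% and 1.81% of all genes. The median of the 20 was -0.45 for 2OHE2. Against the same controls that median was -0.18 for 2OHE1 and -0.29 for 4OHE1. The largest fall was that of Serpinb2, plasminogen activator inhibitor 2, a protease inhibitor strongly induced by LPS (chr1:109408000-109422177 in mm9). Serpinb2 was at 73.8 RPKM with 2OHE2, 109 with 2OHE1 and 152 with 4OHE1, and at 294, 313 and 331 with EtOH, E2 and 16Epi. Each catechol estrogen library was below every control, 2OHE2 the lowest, and its difference was -2.08 ± 0.09 (adjusted p = 7.1e-05). Il6, the cytokine interleukin-6, was at 258 RPKM with 2OHE2, 369 with 2OHE1, 356 with 4OHE1 and 443, 387 and 456 in the controls (-0.73, adjusted p = 0.012). Ptgs2, cyclooxygenase 2, was at 550, 889 and 726 RPKM with 2OHE2, 2OHE1 and 4OHE1 and at 798, 764 and 875 in the controls (-0.56, adjusted p = 0.0181). For Il6 and Ptgs2 the 2OHE2 library stood below all 5 others, by 0.46 and 0.40.

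Further falls were those of Tnfsf15, of the tumour necrosis factor family (-0.99), Il12b, the shared subunit of interleukin-12 and interleukin-23 (-0.96), the acute phase gene Saa3 (-0.55), nitric oxide synthase 2, Nos2 (-0.45), and Il27, a cytokine subunit (-0.44). Not every LPS-induced gene was lower. Tnf, tumour necrosis factor, was at 1824 RPKM with 2OHE2 and at 1850 to 1976 in the controls (-0.08, adjusted p = 0.611). Irg1, which makes itaconate, was at 2488 RPKM against 2464 to 2499 (0.01, adjusted p = 0.966), with its difference at -0.02 under median-ratio scaling. Osm, oncostatin M, was lowest in 2OHE2 by 0.62 and at -0.84 but did not pass (adjusted p = 0.0581). Without E2, the calls of Serpinb2, Il6 and Il12b were kept and the other 5 were lost (adjusted p from 0.0656 to 0.115).

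Of 19 kept chemokines, 8 fell and none rose by the test, beside 1.39% and 1.81% of all genes. The median of the 19 was -0.44 for 2OHE2, -0.41 for 2OHE1 and -0.39 for 4OHE1. The falls included the neighbouring monocyte attractants Ccl2, Ccl7 and Ccl12 on chromosome 11. Ccl12 was at 17.4 RPKM with 2OHE2, 27.1 with 2OHE1 and 20.2 with 4OHE1 against 54.5, 40.5 and 42.2 with EtOH, E2 and 16Epi, a difference of -1.38 (adjusted p = 0.00812). Ccl7 fell by 1.16 and Ccl2 by 0.80; the 3 genes are similar in sequence, and the counting could divide their reads. Ccl22, which attracts T cells through CCR4, fell by 1.11, Ccl6 by 0.78, Ccl4 by 0.67, Cxcl10 by 0.55 and Ccl9 by 0.52. The neutrophil attractants Cxcl1 and Cxcl3 gave other values: Cxcl1 was at 819 RPKM with 2OHE2 and 665 to 746 in the controls (0.21, adjusted p = 0.225), and Cxcl3 at 976 against 654 to 784 (0.48, adjusted p = 0.0516). Values of Cxcl2 and Cxcl5, which are also kept on this list, are not reported here. Ccl3 was at -0.36 (adjusted p = 0.0507). The chemokine receptor Ccr1 fell by 0.99. Of these 9 called genes 3 were called without E2, namely Ccl2, Ccl7 and Ccl12 (the other 6 with adjusted p from 0.0563 to 0.102), and all 9 without EtOH or 16Epi.

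Genes that restrain the LPS response were among the falls. Of 22 kept feedback inhibitors, 6 fell and 1 rose by the test, beside 1.39% and 1.81% of all genes. The median of the 22 was -0.17 for 2OHE2, -0.12 for 2OHE1 and -0.31 for 4OHE1. Besides Il1rn the falls were Socs1 (-0.82) and Socs3 (-0.39), which inhibit JAK kinases, and the anti-inflammatory cytokine Il10 (-0.57). The others were Tnip3 (-0.57), which inhibits NF-kB signalling, and Zfp36 (-0.53), which destabilises cytokine mRNAs. Dusp4, a phosphatase of MAP kinases, rose by 0.56. Cish, at -1.08, did not pass (adjusted p = 0.0711). Ch25h, which makes the interferon-induced oxysterol 25-hydroxycholesterol, was at 32.5 RPKM with 2OHE2 against 75.6 to 90.1 in the controls and fell by 1.35 (adjusted p = 0.00183). The cholesterol exporter Abca1 fell by 0.74 and ornithine decarboxylase Odc1 by 0.72. Against the same controls, Abca1 was at -0.58 with 2OHE1 and -1.17 with 4OHE1, and Ch25h at -1.03 and -1.28. Of these 9 called genes other than Il1rn, only Socs1 and Ch25h were called without E2 (the other 7 had adjusted p from 0.0756 to 0.128), and Abca1 was not called without 16Epi (0.0783). With the GC and length trend removed, Dusp4 and Abca1 were not called (adjusted p between 0.0552 and 0.0664).

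Several pathways near those above held no call or few. Over all 7120 genes 3.2% were called and 1244 had an unadjusted p below 0.05, so that the counts of most of these short lists lie near the background. None of 20 genes of NF-kB and TLR4 signalling passed limma's test (4 had an unadjusted p below 0.05), nor did any of 16 immediate early and AP-1 genes (5 unadjusted), 16 genes of endoplasmic reticulum stress (1 unadjusted), 32 of the respiratory chain (7 unadjusted) or 16 of the tricarboxylic acid cycle (0 unadjusted). Cholesterol synthesis genes also held no call (7 of 20 unadjusted), with a median of 0.21. Of 18 heat shock factor targets, 1 rose (Dnajb4, 0.62). Of 20 targets of the stress factor ATF4, Gdf15 rose (0.88) and Nupr1 fell by 0.66. Lysosome and autophagy genes gave 2 rises among 23, Sqstm1 and the autophagosome protein Map1lc3b (0.63). Glycolysis and HIF1 targets gave 2 rises among 21, the glucose transporter Slc2a1 (0.40) and the enzyme Pgam1 (0.60). In the cell cycle list of 24 genes Cdkn2b alone rose.

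Further calls stood in other lists or in none. Upp1, uridine phosphorylase, which is on no list, was at 5.79 RPKM with 2OHE2, 5.83 with 2OHE1 and 14.4 with 4OHE1, and at 17.6, 21.1 and 15.0 with EtOH, E2 and 16Epi. Both 2-hydroxylated estrogen libraries were thus far below the controls (-1.60 for 2OHE2, adjusted p = 0.00877). Gadd45a, a p53 target induced by DNA damage, fell by 0.87 and was the lone call among 10 kept p53 targets, beside 3.2% of all genes. Of 27 kept surface and adhesion genes 2 rose, Layn and Ednrb, and 5 fell, beside 1.81% and 1.39% of all genes. Among the 5 was the scavenger receptor Marco (-0.85). Of 16 antigen presentation genes H2-DMb1 fell by 0.60 and Cd40, a costimulatory receptor, by 0.34, beside 1.39% of all genes called lower. Procr, the protein C receptor, rose by 0.66. Of the 11 called genes in this group, which are Upp1, Gadd45a, Marco, H2-DMb1, Cd40 and Procr with Nupr1, Map1lc3b, Slc2a1, Pgam1 and the uncharacterised 1700071M16Rik (a rise of 1.36), Upp1 and Gadd45a stayed called without E2 (the other 9 had adjusted p from 0.0756 to 0.147). Without 16Epi, Slc2a1 (0.0604) and H2-DMb1 (0.0556) were not called, and Slc2a1 was not with the GC and length trend removed (0.105). With no variance trend, and with no filter on level, all 11 calls were lost. With a mean of at least 1 RPKM 5 were lost, that of Gadd45a among them.

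**Figure D4:**
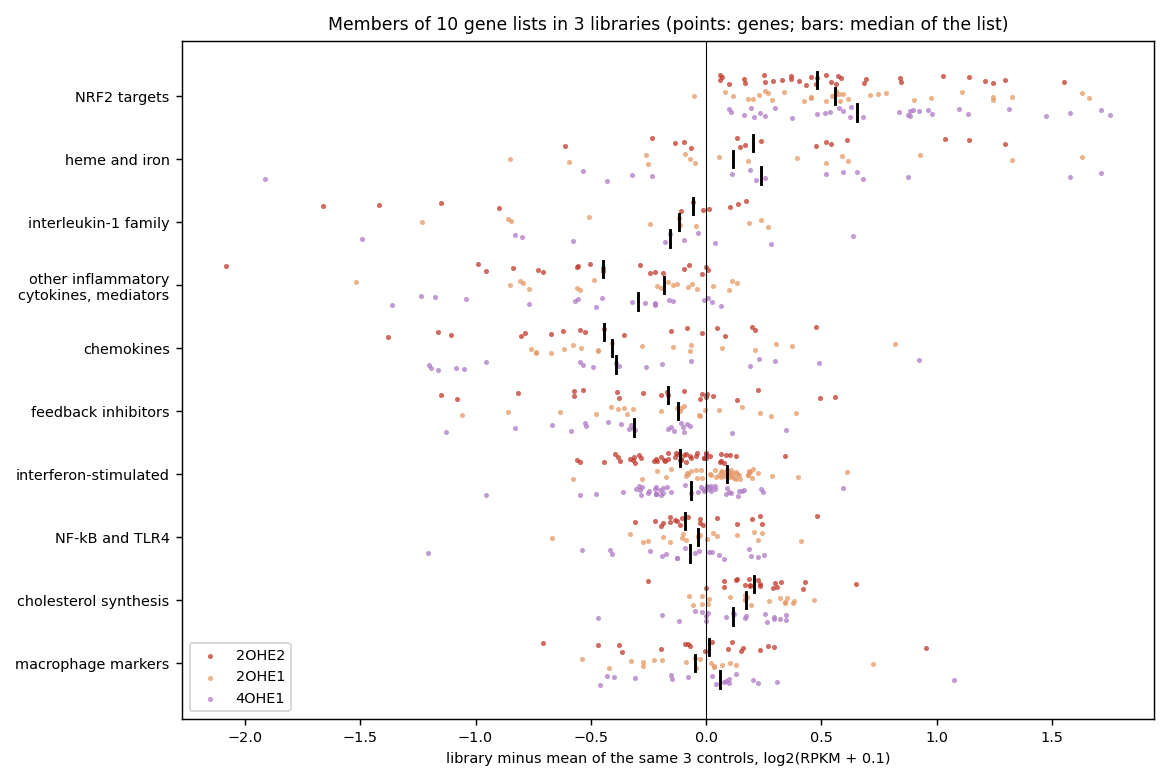
Difference from the mean of the 3 controls (horizontal axis, log2(RPKM + 0.1)) of the kept members of 10 gene lists (points) in the 2OHE2, 2OHE1 and 4OHE1 libraries, with bars at the list medians. With 2OHE2 the NRF2 targets lie above 0 with a median of 0.48, the chemokines and other inflammatory genes have medians of -0.44 and -0.45, and the NF-kB and TLR4 genes and macrophage markers centre near 0.

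Genes in which the 2OHE2 library stood outside all 5 others numbered 1705 above (23.9%) and 765 below (10.7%). These shares depend on the scaling: with median-ratio scaling they were 1226 and 1090 genes, and with the GC and length trend removed 1079 and 1182. In single other libraries the highest value fell on 11.7% (EtOH) to 19.4% (16Epi) of genes and the lowest on 11.3% (E2) to 30.7% (4OHE1). Larger gaps were few. In 21 genes 2OHE2 was highest by at least 0.5 and in 16 it was lowest by at least 0.5; in 4 it was lowest by at least 1. Of the 129 rises 56 were above all 5 other libraries, and of the 99 falls 68 were below all 5.

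The 4 genes lowest by at least 1 were Ifnb1, Pet117, E230016M11Rik and Ifitm1. Pet117, an assembly factor of cytochrome oxidase, stood lowest by 1.11 on 11 reads (exact Poisson interval 5.49 to 19.7). E230016M11Rik stood lowest by 1.10 on 88 reads, and Ifitm1, an interferon-induced membrane protein, by 1.04 on 45 reads. The next were 2310009A05Rik, with a gap of 0.98 on 18 reads, and, after Il1f6, Bloc1s2, a subunit of lysosome-positioning complexes, with a gap of 0.84. Among genes above all others, 1700021F05Rik stood out by 0.79 and Tmem251 by 0.73, neither past the test (adjusted p = 0.0561 and 0.0526). Tssc4 stood out by 0.70, the heat shock protein Dnajb4 by 0.36, the RNA sensor Tlr13 by 0.28 and the GTPase Rhob by 0.27. Mt2, a metallothionein that binds zinc and copper, was at 275 RPKM with 2OHE2, 151 with 2OHE1 and 164 with 4OHE1, and at 203, 172 and 169 with EtOH, E2 and 16Epi. Its 2OHE2 value was the highest by 0.44, a rise of 0.60 over the controls (adjusted p = 0.0319). The neighbouring Mt1 was highest in 2OHE2 by 0.03 and rose by 0.50. Tlr13 and Rhob were chosen after their values were seen. Without E2, Ifnb1, E230016M11Rik, Bloc1s2, Tlr13 and Rhob were called, and the other 7 called genes were not (adjusted p from 0.0616 to 0.121); without 16Epi Tssc4 was not (0.0565), nor with the GC and length trend removed (0.0878). With limma-voom on recovered reads Pet117, Ifitm1, Bloc1s2 and 2310009A05Rik were not called (adjusted p from 0.0553 to 0.105).

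The compounds were compared at the same dose and times in 3 pairs, with p-values adjusted over the 7120 genes and the 3 pairs together. Against E2, 8 genes passed (0.112%), 830 at an unadjusted p below 0.05. Higher with 2OHE2 were Gclc, by 1.53 (95% interval 1.23 to 1.84), and Ednrb, by 1.68 (1.33 to 2.03). Lower were Ifnb1 (-3.25, interval -3.86 to -2.64), Serpinb2 (-2.08), Il1a (-1.57), Gm14023 (-1.49), Il1b (-1.37) and Il1rn (-1.11), with adjusted p from 0.0283 to 0.041 over the 8. Hmox1 differed by 1.27 (0.89 to 1.65) and Srxn1 by 1.03 (0.75 to 1.31), neither past the adjusted test of limma (adjusted p = 0.107 and 0.0884). The spread in this pair came from EtOH and 16Epi alone. Of the 32 NRF2 targets 31 were higher with 2OHE2 than with E2, with a median of 0.46, and all 20 of the other inflammatory genes were lower, with a median of -0.37. Over all 7120 genes 3953 were higher and 3167 lower, with a median of 0.03.

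Against 2OHE1, which differs in the ketone, 1 gene passed (0.014%), 783 at an unadjusted p below 0.05. That gene was Ifnb1, at -2.15 (95% interval -2.72 to -1.58, adjusted p = 0.0486). The call was lost without the E2 library (adjusted p = 0.321), with a pseudocount of 1 (0.0944), with a mean of at least 1 RPKM (0.0729), with no filter on level (0.121), without the variance trend (0.244), with limma-voom on recovered reads (0.0899) and with the authors' log2 values (0.209). In NRF2 targets the median difference between the compounds was -0.05, with intervals reaching a median of 0.24 to either side. Gclc differed by -0.11 (-0.38 to 0.16), Hmox1 by -0.03 (-0.34 to 0.28) and Srxn1 by -0.08 (-0.31 to 0.14), and differences up to these bounds remain within the intervals. Ptgs2 was at -0.69 (-0.93 to -0.45), Il1b at -0.57 (-0.77 to -0.38), Il6 at -0.52 and Rsad2 at -0.58, all with adjusted p between 0.107 and 0.195. Mt2 was 0.86 higher (0.55 to 1.17, adjusted p = 0.111). Of the 47 interferon-stimulated genes 44 were lower with 2OHE2 than with 2OHE1, with a median of -0.20, and none passed (12 unadjusted). Over all genes 2908 of 7120 were lower, with a median of 0.05.

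Against 4OHE1, 2 genes passed (0.0281%), 1272 at an unadjusted p below 0.05, and both were lower with 2OHE2. Ifnb1 differed by -2.52 (95% interval -3.09 to -1.95, adjusted p = 0.0292) and Serpinb2 by -1.04 (-1.28 to -0.80, adjusted p = 0.0292). Without E2 neither was called (adjusted p = 0.321 for each), nor with no filter on level (0.0957 and 0.0838) or without the variance trend (0.244 and 0.272), and Ifnb1 was not with the authors' log2 values (0.0759). NRF2 targets were lower with 2OHE2 than with 4OHE1 in 27 of 32 genes, with a median of -0.18 and none past the test (9 unadjusted), while 2771 of all 7120 genes were lower and their median was 0.07. Gclc differed by -0.20 (-0.47 to 0.07) and Hmox1 by -0.28 (-0.59 to 0.03). Il1a differed by -0.17 (-0.40 to 0.06) and Il1b by -0.62 (-0.81 to -0.43, adjusted p = 0.0884). Mt2 was 0.74 higher with 2OHE2 (0.43 to 1.05, adjusted p = 0.147).

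**Figure D5:**
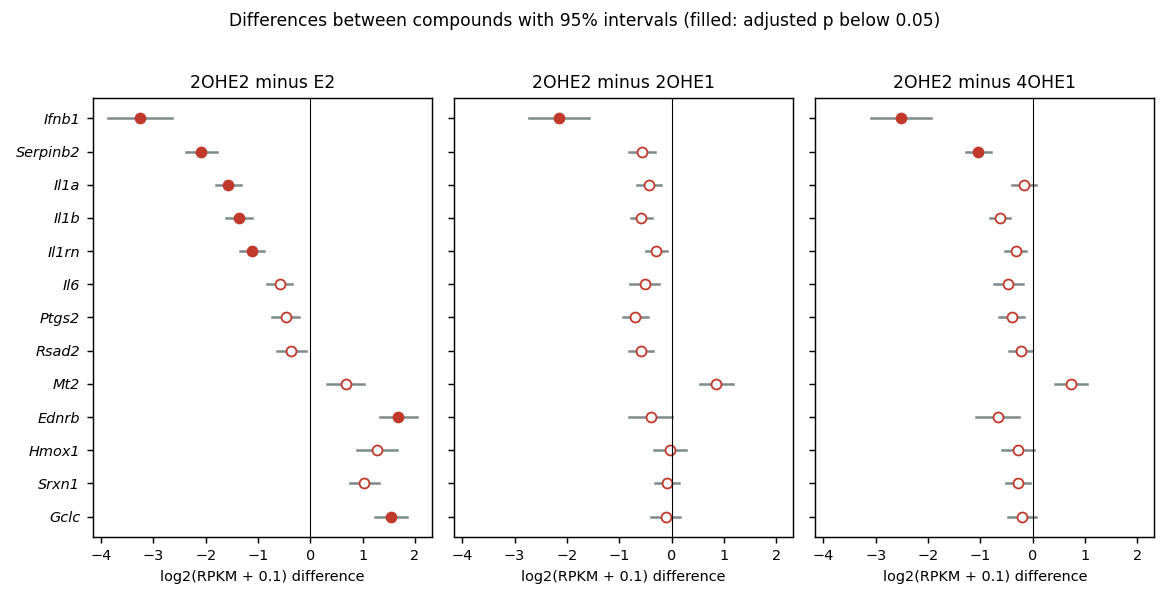
Difference of the 2OHE2 library from E2, 2OHE1 and 4OHE1 (horizontal axes, log2(RPKM + 0.1)) for 13 genes, with 95% intervals of limma as lines and filled points where the adjusted p is below 0.05. Ifnb1 is filled in all 3 panels, Serpinb2 against E2 and 4OHE1, and the intervals of Gclc and Hmox1 cross 0 against 2OHE1 and 4OHE1 but not against E2.

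Across the 228 called genes the other catechol estrogens, measured against the same controls, gave values of the same order. The 129 genes called higher had a median of 0.67 with 2OHE2, 0.58 with 2OHE1 and 0.62 with 4OHE1. The 99 called lower had medians of -0.68, -0.40 and -0.48. These genes were chosen on the 2OHE2 values and the 3 comparisons share their controls, so the medians are a description.

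Estrogen receptor genes were barely detected. Esr1 was at 0.295 RPKM (24 reads) with 2OHE2 and at 0.042 to 0.395 in the controls, and Esr2 had 4 reads with 2OHE2 and 0 in each of the other libraries. Ahr, the aryl hydrocarbon receptor, was at -0.13 (adjusted p = 0.683), and its target Cyp1b1, which hydroxylates estradiol, was at 4.98 RPKM against 6.12 to 7.36 (-0.42, adjusted p = 0.339). Of 15 kept genes of estrogen handling and this receptor pathway, Nqo1 alone passed, beside 3.2% of all genes.

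Macrophage markers were present in the 2OHE2 library. Of 20 listed macrophage markers 18 were kept, and 1 rose and 2 fell by the test, beside 1.81% and 1.39% of all genes. Their median difference was 0.01, with 9 differences above 0 and 9 below. Cebpa, a myeloid transcription factor, rose by 0.95. The Fc receptor Fcgr1, 1 of the 2 falls, fell by 0.47, and the lowest difference among the 18 was -0.71. Csf1r, the receptor of M-CSF, was at 517 RPKM against 425 to 433 (0.27, adjusted p = 0.0712). The calls of Cebpa and Fcgr1 were lost without E2 (adjusted p of 0.0728 and 0.112). No listed marker of T cells, B cells, dendritic cells, erythroid cells or mast cells reached a mean of 5 RPKM, and 5 of 8 T cell, 4 of 6 B cell, 6 of 7 erythroid and 5 of 8 mast cell markers were at 0 in all 6 libraries. Fibroblast markers summed to 21.2 RPKM with 2OHE2, 28.4 with 2OHE1, 19.5 with 4OHE1 and 24.4 to 29.4 in the controls. Their 3 kept members were below all 3 controls with 2OHE2. Neutrophil markers summed to 37.3 with 2OHE2 and to 31.6 to 51.5 in the other libraries. No fibroblast or neutrophil marker was called. In bulk RNA, fewer cells of a type and less RNA per cell cannot be told apart.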

How the data were processed

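Per the labels' protocols, mRNA libraries of the 6 cultures were sequenced on a HiSeq2500. Per the submitters' processing notes, reads were handled with STAR, HOMER, DESeq2 and edgeR on mm9, versions not given in the sources used here. The deposited RPKM values were made with HOMER from reads over exons and hold 1 row per gene, as the file headers state. A second deposited table holds the authors' log2 values, log2 fold changes and p-values, which cover all 3 hydroxyestrogens together. Its fold change is positive where controls are higher. Groups follow sample titles; a treatment field in the labels says the opposite.

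RPKM times length and library total gave whole reads (within 0.1) for 100% of 1873 to 2607 low values per library. limma 3.58.1 in R 4.3.3 (variance trend, two-sided, Benjamini-Hochberg, threshold 0.05) was fitted to log2(RPKM + 0.1) of 7120 genes, with coefficients for 2OHE2, 2OHE1, 4OHE1 and the 3 controls; 2 residual degrees of freedom come from the controls, a median of 7.92 with the moderation. For the E2 pair, E2 had its own coefficient (median 6.27). Scripts were tested on simulated data. GC content, names and promoters came from GRCm38 annotation and RefSeq, matched by name (GC for 6834 genes); coordinates in mm9 are the files' own.

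The compound, gene lists and tests were chosen with earlier results of these data known. Named genes include the 12 largest rises and falls among genes past the test and outside the control range, and the 10 largest gaps each way. They also include up to 4 genes per list, a set of fixed genes and the largest pair differences. A further 32 were chosen after their values were seen. Alternatives were another pseudocount, filters on mean RPKM, median-ratio scaling, no variance trend, each control left out, limma-voom on recovered reads, the authors' log2 values and, chosen after seeing the data, removal of the GC and length trend. Some results of the fit are not reported here.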

Additional observations from a re-analysis of the deposited data

Results flagged for a closer look

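In pairs of compounds measured at the same dose, 2OHE2 differed from another catechol estrogen past the adjusted test in 3 values. Ifnb1 was at -2.15 against 2OHE1 and at -2.52 against 4OHE1 (log2, limma), and Serpinb2 was at -1.04 against 4OHE1. Each rests on 1 library per compound. The groups hold 1 or 3 libraries, too few for a check for single outlying samples.

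List medians of 2OHE2 lay on the other side of 0 from those of another catechol estrogen in several lists; these differences were not tested, and the libraries share their controls. Against 2OHE1 these were the type I interferon genes (-0.064 with 2OHE2, 0.041 with 2OHE1), the interferon-stimulated genes (-0.11 and 0.09), antigen presentation (-0.088 and 0.036), and the macrophage markers (0.012 and -0.046). Against 4OHE1 it was the AP-1 genes (0.0077 with 2OHE2, -0.15 with 4OHE1). Against both it was the prostaglandin, arginine and polyamine genes (-0.060 with 2OHE2, 0.037 with 2OHE1 and 0.032 with 4OHE1) and the metallothioneins with zinc transporters (0.19, -0.12 and -0.04). With the GC and length trend removed, some of these medians lay on the same side of 0. The AP-1 genes were then at -0.11 with 2OHE2 and -0.12 with 4OHE1. The macrophage markers were at -0.087 with 2OHE2 and -0.058 with 2OHE1. The metallothionein list was at 0.20 with 2OHE2 and 0.05 with 4OHE1. The other pairs of medians named here stayed on opposite sides.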

How the results depend on the processing

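The count of genes differing from controls was 228, and 10 with no variance trend, 464 with limma-voom (215 shared) and 470 with the authors' log2 values (212 shared), with 39 to 439 when 1 control was left out. With no filter it was 281, of which 24 were among the 228. The cause was not tested. Against 2OHE1 the count was 1, and 0 with a pseudocount of 1, with a mean of at least 1 RPKM and with no variance trend, 423 with no filter, 31 with limma-voom, 59 with the authors' log2 values, 7 with the GC trend removed, and 0 to 99 without a control. Against 4OHE1 it was 2, and 412 with no filter, 0 with no variance trend, 102 with limma-voom, 134 with the authors' values, 10 with the GC trend removed and 0 to 178 without a control. Against E2 it was 8, and 442, 0, 69, 56 and 44 under the same 5 settings; leaving out a control could not be run for this pair, since no residual degree of freedom remains. Genes at least 2-fold off numbered 56, with 219 at a mean of at least 1 RPKM and 1033 with no filter, which test more genes; those outside all 5 libraries numbered 2470, with 4884 with no filter. The median of other inflammatory genes was -0.45, and -0.47 at a mean of at least 1 RPKM, -0.50 with no filter, -0.48 with median-ratio scaling, -0.52 with the GC trend removed and -0.45 to -0.40 without a control. That of interferon-stimulated genes was -0.14 with median-ratio scaling and with the GC trend removed, and that of chemokines -0.50 with no filter; NRF2 and interleukin-1 medians moved by less than the spread of the controls. Among 121 gene values, direction changed for Irg1 (-0.024 with median-ratio scaling). Leaving out E2 lost 62 calls, no filter 84 and no variance trend 87, beside at most 12 for any other setting. No paired analysis was possible because the labels name no animal or culture that would link 2OHE2 to a control. Low counts limit Ifnb1, with 23 reads.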
